A study of Sus scrofa with 2 samples.

Results

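Of the 3071 long non-coding RNA (lncRNA) transcripts listed for Yorkshire endometrium on day 18 of pregnancy (YK18), 160 (5.21%) lay at middle expression levels. The members were chosen by their measured level, as TCONS identifiers with a mean of at least 20 and under 100 RPKM over 2 libraries and neither library over 100 RPKM. RPKM, the unit the authors deposited, is by definition the number of reads per kilobase of transcript scaled to library size. The lengths behind the deposited values were recovered, as described below. For mRNA transcripts at 20 to 100 RPKM their median was only 215 nt, so levels of mRNAs are given on the deposited scale only. The whole table holds 43699 transcripts. Each library came from the endometrium of 1 artificially inseminated Yorkshire pig of a single commercial herd, taken at slaughter after the uterine horns had been flushed. The pigs are called replicate 1 and replicate 2. They are 1 condition, so no test between conditions was possible, and a difference between the libraries is a difference between 2 pigs.

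lncRNAs are transcripts that resemble mRNAs in how they are made but do not encode a protein. Some act in the nucleus on the transcription of other genes, as guides, decoys or scaffolds, and others act in the cytoplasm on the stability or translation of mRNAs. Most are present at lower levels than mRNAs and in fewer tissues. The endometrium of the pig on day 18 of pregnancy is the lining to which the conceptus is attaching, and it is shaped by progesterone and by conceptus signals. The lncRNAs described here were assembled from reads and carry only TCONS identifiers. Their sequences, positions and neighbouring genes were not used here, and no function is known for them from these data.

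The deposited RPKM values rise in steps of 1 read, from which library totals of 7466979 reads in replicate 1 and 7023108 reads in replicate 2 were worked out. The smallest length at which a transcript has whole reads in both libraries gave its recovered length and its recovered reads. Epithelial and stromal RNA was present in both libraries. EPCAM, a surface protein of epithelial cells, was at 5106 and 5128 RPKM in replicates 1 and 2, and PGR, the progesterone receptor, was at 530.9 and 434.2 RPKM. The marker lists held 8 epithelial and 8 stromal genes, of which 7 and 5 were matched by accession. Of the matched genes, 6 epithelial and 4 stromal were above 0 in both libraries, while KRT8 and SPP1 were listed at 0 in both. Matched from other lists were 7 of 8 skeletal muscle, 4 of 6 trophectoderm, 5 of 6 smooth muscle and 3 of 4 leukocyte genes. The stromal sum was 69452 RPKM in replicate 1 against 44378 RPKM in replicate 2, most of it COL3A1, a collagen, at 67098 and 42857 RPKM. The 5 stromal genes were divided, with 3 higher in replicate 1 and 2 in replicate 2. The latter were VIM, at 19.5 and 24.9 RPKM, and DCN, at 211.0 and 272.5 RPKM. The epithelial sums were nearer, at 12197 and 11231 RPKM, with 4 genes higher in replicate 2 and 2 in replicate 1. KRT18 was at 1626 and 1064 RPKM, from 2149 and 1323 reads. KRT19 was at 267.8 and 522.1 RPKM, from 6 and 11 recovered reads. Recovered reads of KRT19 and the other markers are the smallest possible, and the true ones may be whole multiples. The lengths behind the marker levels were not checked. Markers of other cells differed as well. All 7 skeletal muscle genes found were higher in replicate 1, with a sum of 471.8 RPKM against 27.3 RPKM (380 against 6 reads), and TNNC1 and ACTA1 were at 0 in replicate 2. Of 5 smooth muscle genes, 2 were above 0, with sums of 115.4 and 105.0 RPKM, and ACTA2, CNN1 and MYLK were listed at 0. Of 4 trophectoderm genes, 2 were above 0 in both libraries and higher in replicate 1, with a sum of 683 against 89.3 RPKM, nearly all of it IFNG, and GATA3 and ELF5 were listed at 0. All 3 leukocyte genes were higher in replicate 2, with a sum of 608 against 991 RPKM. HBB, a globin of erythrocytes, was at 3549 and 8431 RPKM, with ALAS2 listed at 0. The part of these differences in the lncRNA values below was not tested. In bulk tissue, fewer cells of a type and less RNA per cell cannot be told apart.

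The members took the ranks 17 to 177 by mean level among the lncRNAs, apart from 1 transcript in that range which was left out for a library over 100 RPKM. Their means ran from 20.1 to 92.4 RPKM, with a median of 30.7 RPKM. The lower levels were the most populated, with 78 members from 20 to 30 RPKM, 56 from 30 to 50 RPKM and 26 at 50 RPKM or more. In replicate 1 the values ran from 3.66 to 94.0 RPKM with a median of 29.8 RPKM. In replicate 2 they ran from 14.1 to 95.8 RPKM with a median of 31.8 RPKM. A mean can reach 20 RPKM through 1 library. In both libraries 122 members (76.2%) lay between 20 and 100 RPKM, while 26 were under 20 RPKM in replicate 1 and 12 in replicate 2.

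**Figure D1:**
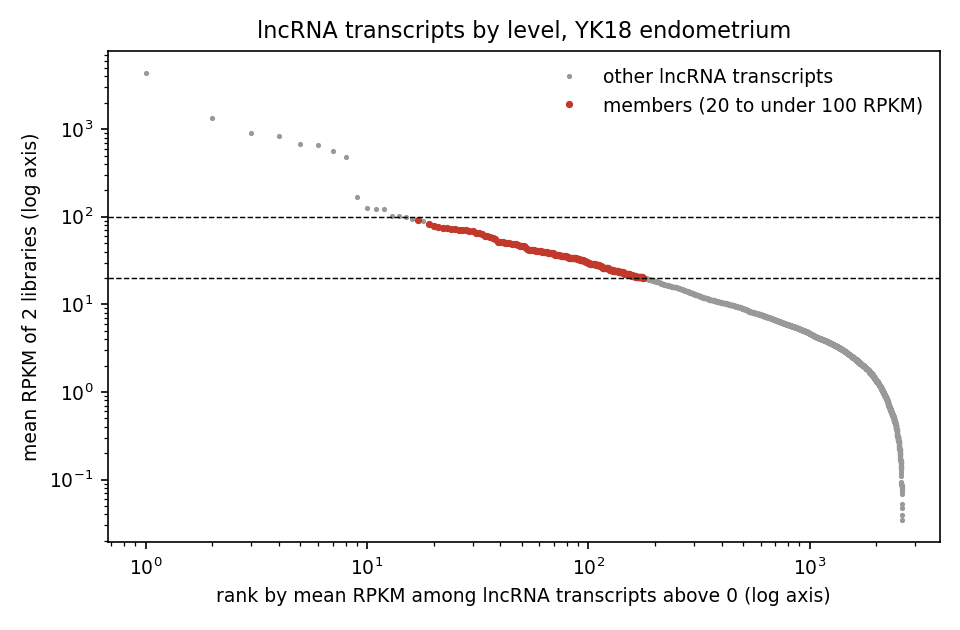
Mean RPKM of the 2 YK18 libraries (y axis, log scale) against rank by mean (x axis, log scale) for lncRNA transcripts above 0, with the 160 members in red and dashed lines at 20 and 100 RPKM. The members fill the stretch between the 17 transcripts over 100 RPKM in either library and the 2894 transcripts under 20 RPKM.

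TCONS_01721593 had the highest level of the members, at 93.4 and 91.5 RPKM in replicates 1 and 2, a mean of 92.4 ± 1.35 RPKM (SD, n = 2). With 394 and 363 reads, the 95% exact binomial interval of its ratio, 0.85 to 1.13, held equality. TCONS_03464007 came next, at 68.1 and 95.8 RPKM, followed by TCONS_08611228 at 82.8 and 72.1 RPKM. The highest members therefore took different orders in the libraries. In replicate 1 TCONS_03480838 stood first among the members, at 94.0 RPKM, but it was at 56.8 RPKM in replicate 2. TCONS_04138292 was at 69.9 and 78.9 RPKM, and TCONS_00164501 at 57.4 and 89.9 RPKM. TCONS_10411435, TCONS_00334835 and TCONS_10402598 stayed within 1.5-fold between the pigs, with means of 73.1 ± 5.30, 72.1 ± 7.64 and 70.4 ± 3.75 RPKM (SD, n = 2). TCONS_02310976 was at 52.2 and 88.5 RPKM. Of these 10 highest members, none differed as much as 2-fold between the pigs.

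At the lower limit the choice turned on small differences in level. TCONS_07981783 was just inside it, at 18.1 and 22.0 RPKM, and TCONS_02584638 was inside it through replicate 2, at 7.97 and 32.3 RPKM. The next members up, TCONS_00603906, TCONS_10381656 and TCONS_02616016, had means of 20.3, 20.4 and 20.4 RPKM. Just outside it, TCONS_09769532 had a mean of 19.9 RPKM, from 24.0 and 15.8 RPKM. TCONS_02415278 and TCONS_10422103 were at 20.2 and 19.6 RPKM and at 18.6 and 21.0 RPKM. TCONS_09142952 and TCONS_05737240 also missed the limit, with means of 19.9 RPKM, although they were at 36.2 and 36.4 RPKM in replicate 2, because they were at 3.61 and 3.42 RPKM in replicate 1. At the upper limit, TCONS_01160281, TCONS_06056189 and TCONS_08577397 had means under 100 RPKM and were left out, since 1 library was at 104.7, 104.1 and 102.1 RPKM. TCONS_03419120, with a mean of 100.7 RPKM, was the lowest above it.

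The recovered length of the members had a median of 953.5 nt, and the middle 50% ran from 295 to 1877 nt. That of all lncRNAs was 379 nt, and that of the 764 lncRNAs from 5 to 20 RPKM was 665.5 nt. Recovered lengths can be too short by a whole factor, and 19 members had one under 200 nt, below the length that defines a lncRNA. So had 749 of all lncRNAs and 132 of the 764. Median reads in replicates 1 and 2 were 5 and 5 for all lncRNAs and 38.5 and 40 for the 764. Simulated lengths were exact for 84.9% of transcripts, and for 83.9% of those with 40 reads or more. How far the recovery made the members look longer than other lncRNAs was not tested. Level and length were nearly unrelated across the 160 members, with Pearson and Spearman correlations of 0.07 and 0.05, given as a description over transcripts of the same libraries. The reads behind a member ran from 3 to 7321 in replicate 1 and from 3 to 6799 in replicate 2, with medians of 182 and 208.5. TCONS_03106376, of recovered length 19321 nt, had the most reads, 7321 and 6799, and was at 50.7 and 50.1 RPKM. It was followed by TCONS_09805352 with 6698 and 5811 reads and TCONS_02683514 with 4632 and 3995 reads. TCONS_06776186 had 1712 and 1955 reads, and TCONS_02617856 had 2319 and 1959 reads. The 10 members over 5000 nt held 40.7% of the members' reads in replicate 1 and 37.6% in replicate 2, and their log2 ratios ran from -0.36 to 0.27. At the other end, TCONS_03353911, of recovered length 16 nt, had only 3 recovered reads per library. At such counts its values of 25.1 and 26.7 RPKM would carry almost no information on a difference. Few reads were also recovered for TCONS_01802780, with 11 and 11, TCONS_01578528, with 9 and 13, TCONS_03450102, with 11 and 14, and TCONS_01775665, with 25 and 14. For these members the counts are the smallest possible and the true ones may be whole multiples.

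On the log2(RPKM + 1) scale, the Pearson correlation between the libraries was 0.55 and the Spearman correlation 0.59 across the 160 members. Over the 2148 lncRNAs averaging 1 RPKM or more they were 0.80 and 0.74. The choice of members on the mean of the same libraries bounds these values. Across the 26 members at 50 RPKM or more the Pearson correlation was -0.20. The agreement can also be given as the log2 ratio, replicate 2 over replicate 1. Its SD was 0.61 and its median 0.07 over the members, against 0.73 and 0.06 over the 20166 transcripts of all kinds averaging 1 RPKM or more. For the 3310 mRNA transcripts in the same RPKM window these were 0.61 and 0.06, and for the lncRNAs from 5 to 20 RPKM 0.67 and 0.11. Whether these SDs differ was not tested, because transcripts of the same 2 libraries are not replicates.

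**Figure D2:**
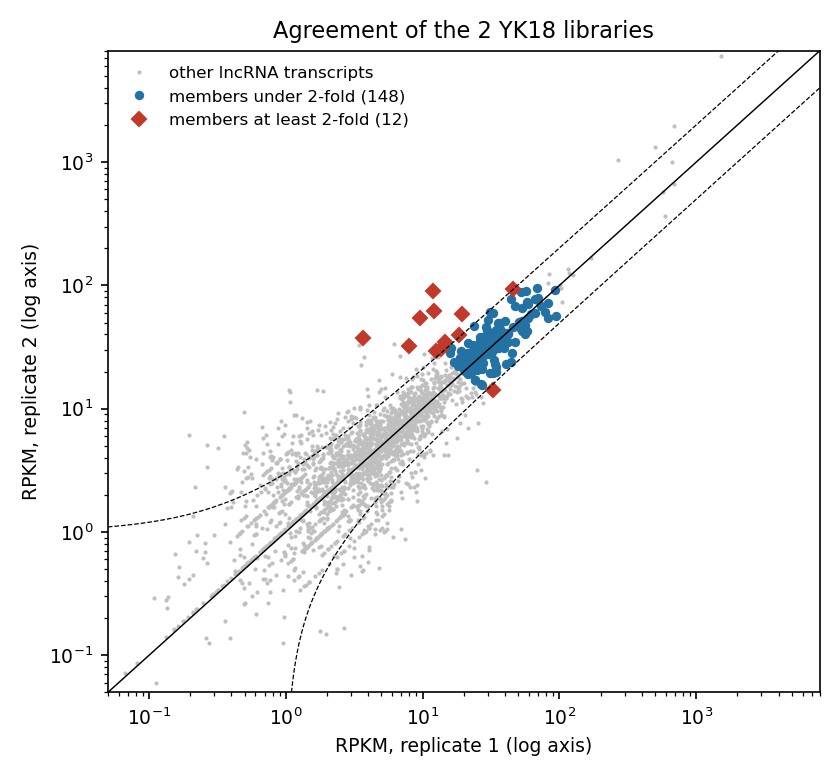
RPKM in replicate 2 (y axis, log scale) against replicate 1 (x axis, log scale) for lncRNA transcripts above 0 in both libraries, with the solid line at equal values and dashed lines at 2-fold on log2(RPKM + 1). The 148 members under 2-fold lie along the line, and 11 of the 12 members beyond 2-fold lie above it, on the side of replicate 2.

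Most members were at like levels in the pigs. Within 1.1-fold on the log2(RPKM + 1) scale were 55 members (34.4%), and 125 (78.1%) were within 1.5-fold. In 5 members the libraries were almost equal. TCONS_04741372 was at 24.9 and 24.9 RPKM, TCONS_03458442 at 40.1 and 40.2 RPKM, and TCONS_09729316 at 32.0 and 31.8 RPKM. TCONS_02616016, named above at the lower limit, was at 20.5 and 20.3 RPKM, and TCONS_00226677 at 45.8 and 46.3 RPKM. Replicate 2 was higher for 91 members and replicate 1 for 69. Replicate 2 was thus higher for 56.9% of the members, near the 57.1% of mRNA transcripts in the same window and the 56.3% of all transcripts averaging 1 RPKM or more.

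Of the 160 members, 12 (7.50%) differed at least 2-fold between the libraries on the log2(RPKM + 1) scale, where 13.1% of all transcripts averaging 1 RPKM or more did. In the same RPKM window 201 of 3310 mRNA transcripts (6.07%) differed as much, and from 5 to 20 RPKM 82 of 764 lncRNAs (10.7%). Replicate 2 was higher for 11 of the 12 members, against a background of 8.53% of all transcripts higher in replicate 2 and 4.57% higher in replicate 1. The 23 members between 1.5-fold and 2-fold were divided otherwise, with 12 higher in replicate 2 and 11 in replicate 1. The largest ratio in RPKM was that of TCONS_06557270, at 3.66 RPKM (23 reads) in replicate 1 but 37.5 RPKM (222 reads) in replicate 2. That is 10.3-fold higher in replicate 2 as a plain ratio of RPKM, with a 95% exact binomial interval of 6.67 to 16.5-fold that covers counting error only. It ranked 1191 among the lncRNAs of replicate 1 and 77 among those of replicate 2. TCONS_00404781 was at 11.9 and 89.8 RPKM, from 99 and 701 reads, 7.53-fold higher (6.09 to 9.39). On the log2(RPKM + 1) scale 4 members differed at least 4-fold, and with its 800 reads it rests on the most reads of these.

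TCONS_01579817 was at 9.61 and 54.2 RPKM, from 30 and 159 reads, a ratio of 5.63 (3.80 to 8.63). TCONS_09660740 was at 12.1 and 61.6 RPKM, from 10 and 48 recovered reads over 111 nt. At these counts its ratio of 5.10 had a wide interval of 2.55 to 11.3. The true counts may be whole multiples, which would narrow the interval. TCONS_02584638, the member near the lower limit, had 16 and 61 reads and a ratio of 4.05 (2.31 to 7.53). These members were all under 20 RPKM in replicate 1 and over 30 RPKM in replicate 2. TCONS_04094247 was at 19.3 and 59.0 RPKM, a ratio of 3.06 (2.36 to 4.0). TCONS_03540797 was at 14.5 and 34.7 RPKM from 241 and 541 reads, and TCONS_09783156 at 12.5 and 29.2 RPKM from 360 and 789 reads, ratios of 2.39 (2.05 to 2.79) and 2.33 (2.05 to 2.65). Reads were thus plentiful for this pair, and both intervals lay above 2-fold. In all, the interval lay wholly beyond 2-fold for 8 of the 12 members and wholly within it for 119 of the 160. The 12 were picked by their ratio, and 11 of them entered through 1 library. Their intervals therefore describe counting error in chosen members and test nothing.

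TCONS_01560279 and TCONS_01560280 carry consecutive identifiers and differed alike. The former was at 18.5 and 39.3 RPKM, from 61 and 122 reads. The latter was at 13.5 and 30.3 RPKM, from 29 and 61 reads. Whether the pair are transcripts of 1 locus, or share reads, was not tested. TCONS_03639056 was the only member of the 12 over 20 RPKM in both pigs, at 45.6 and 93.5 RPKM, a ratio of 2.05 (1.79 to 2.35). With replicate 2 rescaled by the median ratio of all transcripts, TCONS_03639056 and TCONS_01560279 fell just under the threshold, at log2 ratios of 0.96 and 0.99, and 10 members remained. The single member at least 2-fold higher in replicate 1 was TCONS_01538945, at 32.5 and 14.1 RPKM from 59 and 24 reads, a log2 ratio of -1.15. Next in that direction, and named after its value had been seen, TCONS_09954546 was at 44.3 and 24.0 RPKM, under 2-fold. All 7 skeletal muscle markers were higher in replicate 1, the direction of TCONS_01538945. So were the 2 trophectoderm markers above 0, of which CDX2 had only 7 and 1 recovered reads. The 2 smooth muscle markers above 0 were nearly equal, DES at 111.3 and 101.2 RPKM and TAGLN at 4.06 and 3.78 RPKM. All 3 leukocyte markers and HBB were higher in replicate 2, the direction of the other 11, and epithelial and stromal markers were divided. The part of any of these cell types in the ratios was not tested.

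**Figure D3:**
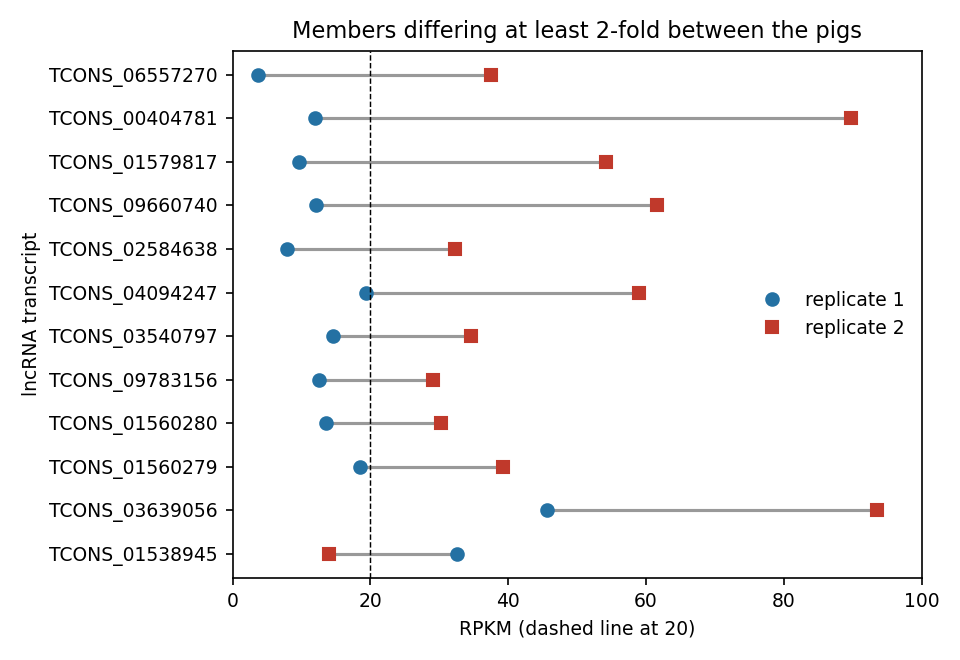
RPKM (x axis, linear) in replicate 1 (circles) and replicate 2 (squares) of the 12 members that differed at least 2-fold, 1 per line, ordered by ratio, with a dashed line at 20 RPKM. TCONS_01538945 is the only one higher in replicate 1, and TCONS_00404781 spans the widest range, 11.9 to 89.8 RPKM.

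The recovered reads allow the difference to be set against counting error. In the exact binomial test of the reads of both libraries, two-sided with Benjamini-Hochberg adjustment over all 20166 transcripts, 62 of the 160 members (38.8%) had an adjusted p under 0.05, where 18.2% of all transcripts did. This compares the 2 libraries and not conditions. Replicate 2 was higher for 42 of the 62 and replicate 1 for 20, beside 10.2% and 8.06% of all transcripts. The members also had more reads than most transcripts tested, with medians of 182 and 208.5 against 36 and 37, and a test on more reads calls smaller differences. Of the mRNA transcripts in the same window 17.3% passed, at medians of 71 and 72 reads. The 62 members called had a median of 887.5 reads over both libraries, and the other 98 had 285. The members were chosen on the mean of these same values, so their count is a description. The 62 include all 12 members beyond 2-fold. Of these 12, 11 were under 20 RPKM in 1 library and entered through the other, so no p-value is given for them.

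Small differences passed too where reads were many. Among the 62 called, 31 were within 1.5-fold. TCONS_09805352, with 6698 and 5811 reads, was called at 58.5 and 53.9 RPKM, a log2 ratio of -0.11, the smallest that passed. TCONS_03106376, with still more reads, was not called, at a ratio of 0.99 (0.96 to 1.02). Over the members, the SD of the log2 ratio without a pseudocount was 0.64, and the root mean square of its counting error was 0.23. The 95% exact binomial interval of the ratio held equality for 88 of the 160 members and not for 72.

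**Figure D4:**
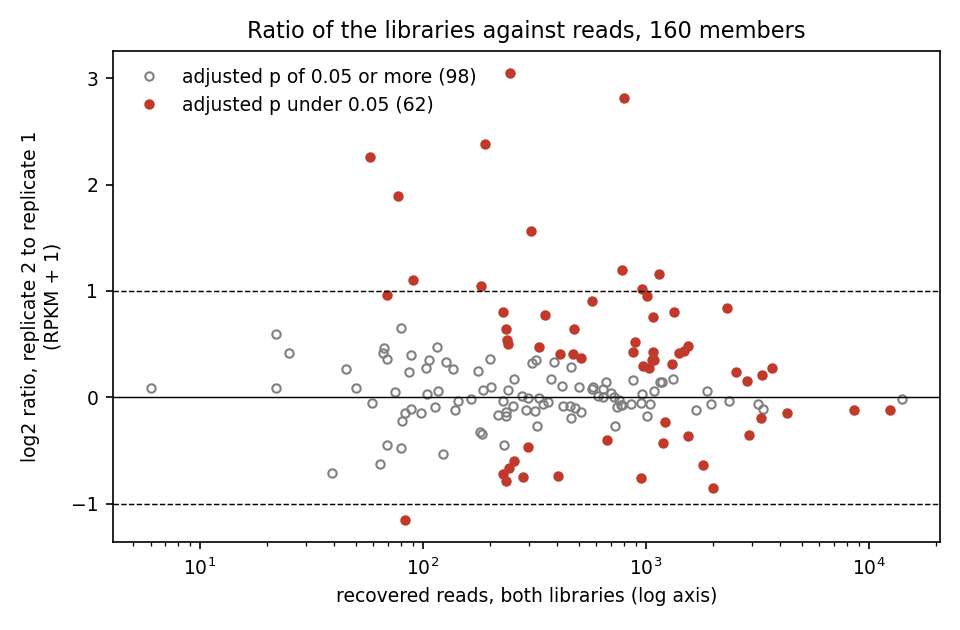
The log2 ratio of the libraries on RPKM + 1, replicate 2 over replicate 1 (y axis), against the recovered reads of both libraries (x axis, log scale) for 160 members, with filled points at an adjusted p under 0.05 in the exact binomial test and dashed lines at 2-fold. At over 1000 reads the 62 filled points also include small ratios.

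Some members had near identifiers. Apart from the pair above, 4 pairs of members in order of identifier lay within 100 numbers of each other. TCONS_00196735, TCONS_00196737 and TCONS_00196765 were at 27.9 and 28.4, 30.4 and 29.0, and 42.4 and 40.6 RPKM, all near equal in the pigs. TCONS_00366192 was at 47.7 and 34.8 RPKM, and TCONS_00366263 at 53.3 and 42.3 RPKM, both higher in replicate 1. In the last pair, TCONS_02616016 was equal in the pigs, as given above, while TCONS_02616053 was at 26.2 and 33.1 RPKM. An identifier number is not a position, so nearness on the genome was not shown.

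Summed over all lncRNAs, 24.7% of the RPKM of replicate 1 and 18.6% of that of replicate 2 came from the 160 members, a mean of 21.7% ± 4.28 (SD, n = 2). Their own sum was higher in replicate 2, at 6015 RPKM against 5401 RPKM. The 12 members beyond 2-fold made 373.6 of that difference of 613.2 RPKM, and the other 148 differed by 239.6 RPKM, a ratio of 1.05. The share was nevertheless lower in replicate 2. The sum of the 17 transcripts over 100 RPKM was 6480 RPKM in the former pig and 15163 RPKM in the latter, and their share moved from 29.6% to 47.0%. With these 17 left out of the sum, the members held 35.1% in replicate 1 and 35.2% in replicate 2. The 2894 transcripts under 20 RPKM held 45.7% and 34.4%.

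**Figure D5:**
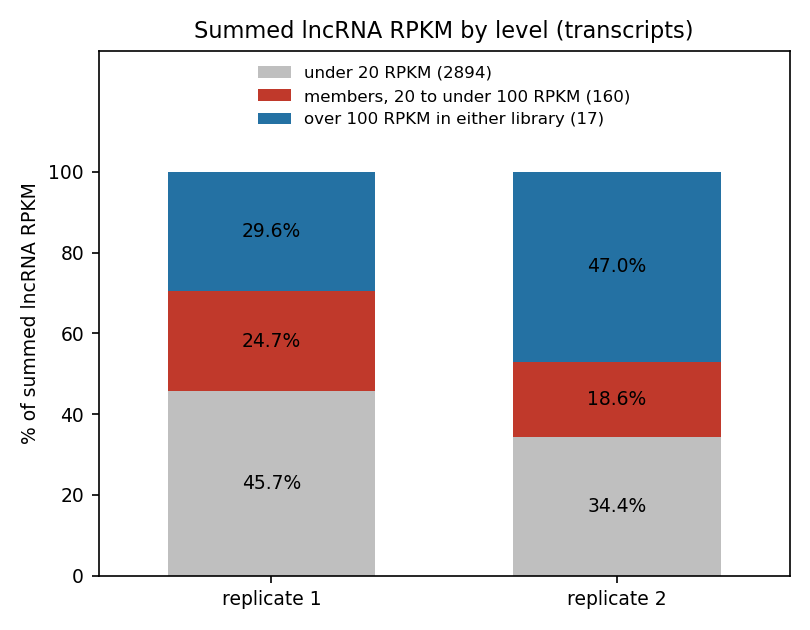
Percent of the summed lncRNA RPKM (y axis, from 0) in each library, stacked by level: 2894 transcripts under 20 RPKM, the 160 members and 17 transcripts over 100 RPKM in either library. The members' part is 24.7% in replicate 1 and 18.6% in replicate 2, and the part over 100 RPKM is 29.6% and 47.0%.

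Within the members the sum was spread over many transcripts. The 10 highest held 13.5% of it in replicate 1 and 13.2% in replicate 2, and the 50 highest held 47.9% and 48.4%. By level, the 78 members from 20 to 30 RPKM held 8.18% of all lncRNA RPKM in replicate 1 and 6.02% in replicate 2. The 56 from 30 to 50 RPKM held 9.14% and 7.0%, and the 26 at 50 RPKM or more held 7.37% and 5.62%. Counted as recovered reads, the members held more of the lncRNA total, 43.8% and 37.4%. Of all RPKM in the table, mRNAs included, they held 0.126% and 0.141%. Their part of all recovered reads was larger, 72593 of about 6737520 in replicate 1 and 71704 of about 6344560 in replicate 2. RPKM divides by length, and the median recovered length was 215 nt for mRNA transcripts in the same window against 953.5 nt for the members. Of these mRNA transcripts, 1512 had a recovered length under 200 nt. Recovered lengths were exact for 84.9% of simulated transcripts. How far lengths recovered too short, or short lengths behind the deposited values, made this gap was not tested.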

How the data were processed

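RNA of endometrium from 2 YK18 pigs was sequenced, 1 library per pig. Transcript counts were made by the authors with HTSeq, who kept lncRNAs by 4 coding potential methods and deposited RPKM values. Aligner, genome build and filters are not given in the sources used here. Every column was used.

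Values were read with Python 3.11.15, pandas 2.3.3, numpy 2.4.6 and scipy 1.17.1, and plotted with matplotlib 3.10.9. Library totals were recovered as the largest whole number giving whole lengths for most low values (96.0% in replicate 1 and 97.3% in replicate 2), and lengths were searched up to 20000 nt. A simulation of 5270 transcripts returned the true totals, with lengths exact for 84.9% and exact or a divisor for 100%. Reads from PCR are not independent molecules, so intervals and exact binomial tests cover counting error only. In a simulation of this comparison over 20166 transcripts, 80 of 100 changed 2-fold and 99 of 100 changed 4-fold were called, with 7 unchanged. The changed transcripts were drawn only from those with 40 reads or more over both libraries. Counts varied by counting error only, so these rates do not hold for transcripts with fewer reads or for variation between pigs.

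Log2 ratios and fold thresholds are on log2(RPKM + 1), a scale that understates changes of low transcripts. Ratios printed for single members with an interval are plain RPKM ratios, with the interval from recovered reads. The background is all transcripts averaging 1 RPKM or more. Marker genes were matched by accession, ignoring version, to RefSeq of Sscrofa11.1 (16072 of 38222 accessions). Named members are the 10 highest, the 5 lowest, those beyond 2-fold, the 5 closest, those with the 5 most and 5 fewest reads, and pairs with near identifiers. No members shared the same reads in both libraries. The members and lists were chosen with earlier results of these data known. Alternatives were other limits, pseudocounts, scalings and filters, reads in place of RPKM, and each replicate left out.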

Additional observations from a re-analysis of the deposited data

How the results depend on the processing

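No paired analysis was possible because both libraries are of 1 condition. An SD over 2 pigs is imprecise. Ratios cannot be given without either replicate. The number of members, 160, was 415 with a lower limit of 10 RPKM and 26 with 50 RPKM, and the median level of 30.7 RPKM was then 16.6 and 67.1 RPKM. The share of summed lncRNA RPKM, 21.7%, was 34.9% and 6.50% with these limits, 35.1% with the transcripts over 100 RPKM left out of the sum, and 40.6% in recovered reads. Without either replicate there were 154 to 172 members, with a median of 30.3 to 31.8 RPKM and a share of 20.2% to 25.4%. The Pearson correlation of 0.55 was 0.65 with a limit of 10 RPKM and -0.20 with 50 RPKM, and the SD of the log2 ratio, 0.61, was 0.68 with each. The median log2 ratio of 0.07 was 0.0095 with replicate 2 rescaled by the median ratio and 0.0061 with the 75th percentile, by construction. The 12 members beyond 2-fold were 39 with a lower limit of 10 RPKM and 2 with 50 RPKM, and at 1.5-fold and 3-fold 35 and 5. They were 12 with pseudocounts of 0.1 and 0.01, 10 with either rescaling and 11 in recovered reads. With a recovered length of at least 200 nt, chosen after seeing the data, they were 11. The share of all transcripts beyond 2-fold, 13.1%, was 18.5% with a pseudocount of 0.1, 19.0% with 0.01 and 8.03% with no filter. The 62 members called by the exact binomial test were 60 to 62 under other scalings or no filter, and 51 at an adjusted p under 0.01.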

Other observations

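A further 206 transcripts in the same RPKM window carry identifiers of a class that the sources used here do not define. Their median levels were 30.04 and 32.6 RPKM in replicates 1 and 2, beside 29.8 and 31.8 RPKM for the lncRNAs. Beyond 2-fold were 17 of them (8.25%), 12 higher in replicate 2 and 5 in replicate 1, and the SD of their log2 ratio was 0.65. The exact binomial test gave an adjusted p under 0.05 for 62 of the 206, at median reads of 121.5 and 133.

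Among the lncRNAs at middle levels, the 84 with a recovered length of 1000 nt or less included 9 of the 12 beyond 2-fold, and the 76 longer ones included 3. The SD of the log2 ratio was 0.69 and 0.50 in these groups, and median reads in replicate 1 were 81 and 482. Length and absolute log2 ratio had a Spearman correlation of -0.15 across the 160 members, as a description over transcripts of the same libraries. The cause was not tested.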
